A study of Mus musculus with 14 samples.

Results

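The regions described here were listed for C/EBPβ in hematopoietic progenitors (HP) and in macrophages (MAC) but in none of the C/EBPβ lists of the 3 earlier stages examined. They were chosen by merging the peaks of the 5 deposited C/EBPβ lists wherever they overlapped by at least 1 bp, and by keeping regions with a peak in HP and MAC and none in mesoderm (MES), hemangioblast (HB) or hemogenic endothelium (HE). The rule kept 1831 of 56276 merged regions (3.25%), here called member regions. The rule used the C/EBPβ lists, so presence or absence in them is a description and not a finding. Members took up 67.4% of the 2716 regions with an HP peak and 3.30% of the 55470 regions with a MAC peak.

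The study followed blood development in culture from mouse embryonic stem (ES) cells, and measured transcription factor (TF) binding by chromatin immunoprecipitation and sequencing (ChIP-seq). Every population came from an ES cell line of strain 129 with a GFP reporter for Brachyury. MES cells were sorted as Bry-GFP+ and Flk1-, HB as Bry-GFP+ and Flk1+, HE as Tie2+, cKit+ and CD41-, HP as CD41+, and MAC as CD11b+ cells grown from the CD41+ cells. Each of the 14 lists held the peaks of 1 factor at 1 stage, so no difference below could be compared with a spread between replicates, and every test compares regions or lists, not conditions. The C/EBPβ lists held 1177 (MES), 715 (HB), 132 (HE), 2716 (HP) and 55471 (MAC) peaks, and the PU.1 lists 10943 (HP) and 82866 (MAC). HE cells were few and were precipitated with mouse mRNA and histone 2B as carriers, and the authors set the peak threshold of each list by eye. Among the C/EBPβ lists, the p-value cutoff was strictest for HE and loosest for MAC. For C/EBPβ in MES and HB, the authors gave no enrichment by PCR at test sites before sequencing. Absence of binding and absence from a short list therefore cannot be told apart. The sorted cells could be checked here only at marker loci, since expression was not used. A MAC C/EBPβ peak and a MAC PU.1 peak lay nearest to 8 of 8 macrophage markers, but also to 7 of 7 progenitor and 5 of 5 mesoderm markers. For hemogenic endothelium it was 3 of 5 (MAC C/EBPβ) and 5 of 5 (MAC PU.1) markers, and for erythroid cells 2 of 4 in both lists. For granulocytes it was 6 of 7 (MAC C/EBPβ) and 7 of 7 (MAC PU.1) markers. An HP PU.1 peak lay nearest to 6 of 8 macrophage, 5 of 7 progenitor and 4 of 5 mesoderm markers. For hemogenic endothelium, granulocytes and erythroid cells the HP PU.1 counts were 3 of 5, 3 of 7 and 1 of 4. An HP C/EBPβ peak lay nearest to 4 of 7 progenitor markers, 1 of 8 macrophage and 1 of 5 mesoderm markers. The same held for 1 of 5 hemogenic endothelium, 1 of 7 granulocyte and 1 of 4 erythroid markers. Members lay nearest to the same numbers of each, apart from erythroid markers, where it was 0 of 4.

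C/EBPβ is a basic leucine zipper factor that binds DNA as a dimer with itself, with other C/EBP proteins or with ATF factors, and takes part in myeloid differentiation, inflammation and the response to amino acid shortage. PU.1, encoded by Spi1, is an ETS factor required for macrophages. At many macrophage enhancers both proteins bind side by side, each at its own short DNA sequence.

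The sequences under some members hold strings of letters that match such short sequences, which are not measured sites. The first set is taken from members near genes of different function and shows the kinds of C/EBP string found. Strings are in capitals on the forward strand of the GRCm38 (mm10) reference from RefSeq.
Canx: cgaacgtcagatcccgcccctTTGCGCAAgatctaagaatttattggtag
Clec12a: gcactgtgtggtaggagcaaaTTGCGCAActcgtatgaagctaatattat
Irf2: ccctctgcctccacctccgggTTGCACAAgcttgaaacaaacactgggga
Il6: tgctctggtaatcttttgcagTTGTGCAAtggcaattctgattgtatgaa
Nfe2: accccactgggTTATGCAAccagcttcccg
Slc7a11: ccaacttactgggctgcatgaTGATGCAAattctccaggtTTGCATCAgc
Steap4: ggcaagttgaaTGACGCAAtgttttgtaga

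The sequences lie at chr11:50325699-50325748 (Canx), chr6:129350083-129350132 (Clec12a), chr8:46739606-46739655 (Irf2), chr5:30014811-30014860 (Il6), chr15:103258375-103258404 (Nfe2), chr3:50443632-50443681 (Slc7a11) and chr5:7980840-7980869 (Steap4). Canx and Clec12a carry the palindromic C/EBP string. Slc7a11 carries a pair of composite C/EBP-ATF strings in opposite directions, and Steap4 the composite C/EBP-CRE string.

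The second set shows members with PU.1 in HP and MAC in which a C/EBP and a PU.1 string lay closest to each other among the members searched, both in capitals on the forward strand.
Tfeb: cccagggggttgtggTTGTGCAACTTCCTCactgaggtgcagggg
Lhfpl2: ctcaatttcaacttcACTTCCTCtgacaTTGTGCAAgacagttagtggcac
Tnfrsf1b: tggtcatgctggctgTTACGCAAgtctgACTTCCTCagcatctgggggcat
Milr1: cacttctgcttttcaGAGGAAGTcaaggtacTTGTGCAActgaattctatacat
Tmem170b: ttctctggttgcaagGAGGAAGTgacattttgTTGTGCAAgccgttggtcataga

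These lie at chr17:47754373-47754417 (Tfeb), chr13:93996554-93996604 (Lhfpl2), chr4:145241138-145241188 (Tnfrsf1b), chr11:106759178-106759231 (Milr1) and chr13:41600132-41600186 (Tmem170b). The starts of both strings were 7 bp apart at Tfeb, so that they share bases, 13 bp at Lhfpl2 and Tnfrsf1b, 16 bp at Milr1 and 17 bp at Tmem170b. Of the 345 members with PU.1 at both stages, 21 outside chromosome 18 held both strings in the peak, and the closest pairs were taken from these, since members of chromosome 18 were left out of the sequences shown.

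Every member consisted of exactly 1 HP and 1 MAC peak, and its length ranged from 400 to 747 bp with a median of 421 bp. The centres of both C/EBPβ peaks were 21 bp apart in the median and within 50 bp in 82.2% of members. At the edge of the rule, 8 members had an earlier C/EBPβ peak within 1000 bp, the closest at Aurkb with a gap of 56 bp. Of the 654 regions held out because HP and MAC overlapped an earlier peak, 3 did so by under 200 bp, the least by 6 bp. Of the 231 HP regions without a MAC peak, 59 had a MAC peak within 1000 bp, the nearest with a gap of 1 bp. Members lay near the top of the deposited MAC C/EBPβ list, whose order goes with the share of peaks that hold a C/EBP string. What the order stands for is not given in the sources used here. Their median position was 8.75% of the way down, and 989 members (54.0%) stood in the first decile, against 4137 of the 52702 regions in MAC alone (7.85%). Regions of HP, MAC and an earlier list stood there as well, with a median of 6.91% and 58.9% in the first decile. In the HP list the median position was 57.0% for members and 23.1% for regions bound earlier.

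To ask how often C/EBPβ shared these regions with PU.1, the overlap with each PU.1 list was counted in members and in 3 other classes of C/EBPβ regions. In HP, 353 of 1831 members overlapped a PU.1 peak (19.3%, 95% interval 17.5 to 21.2), where 7.05% of all merged C/EBPβ regions did. The share was 6.74% in regions of MAC alone, 7.03% in regions of HP, MAC and an earlier list, and 4.76% in regions of HP without MAC. Members exceeded these classes by 12.5, 12.2 and 14.5 percentage points (adjusted p = 4.6e-66, 2.6e-14 and 3.5e-09, two-sided Fisher's exact test, Benjamini-Hochberg over 57 comparisons). The HP PU.1 share of members was therefore higher than that of regions also listed at an earlier stage, as well as of those listed in MAC alone.

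In MAC, 1103 members overlapped a PU.1 peak (60.2%, 95% interval 58.0 to 62.5), where 42% of all merged regions did. The share was 42.0% in regions of MAC alone, 43.3% in regions of HP, MAC and an earlier list, and 23.4% in regions of HP without MAC. The differences were 18.2, 17.0 and 36.9 points (adjusted p = 2.4e-52, 3.1e-13 and 1e-25, Fisher's exact test). Of the regions of HP without MAC, however, 51.5% lay within 500 bp of a tRNA gene. With regions near tRNA genes left out, the PU.1 excess over that class kept its direction and its side of the threshold at both stages. Intervals of shares here and below are exact Clopper-Pearson intervals, and those of differences are Newcombe intervals. Both cover counting error only.

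Read over both stages, PU.1 was present at 345 members in HP and MAC (18.8%), at 758 in MAC alone (41.4%), at 8 in HP alone (0.437%) and at 720 in neither (39.3%). Of the 353 members with PU.1 in HP, 97.7% had it in MAC, and in regions of MAC alone the same share was 98.4%. PU.1 in MAC alone was found at 35.1% of all merged regions, at 35.4% of regions in MAC alone and at 36.2% of regions of HP, MAC and an earlier list. In regions of HP without MAC it was found at 19.5%, and these differences were not tested.

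**Figure D1:**
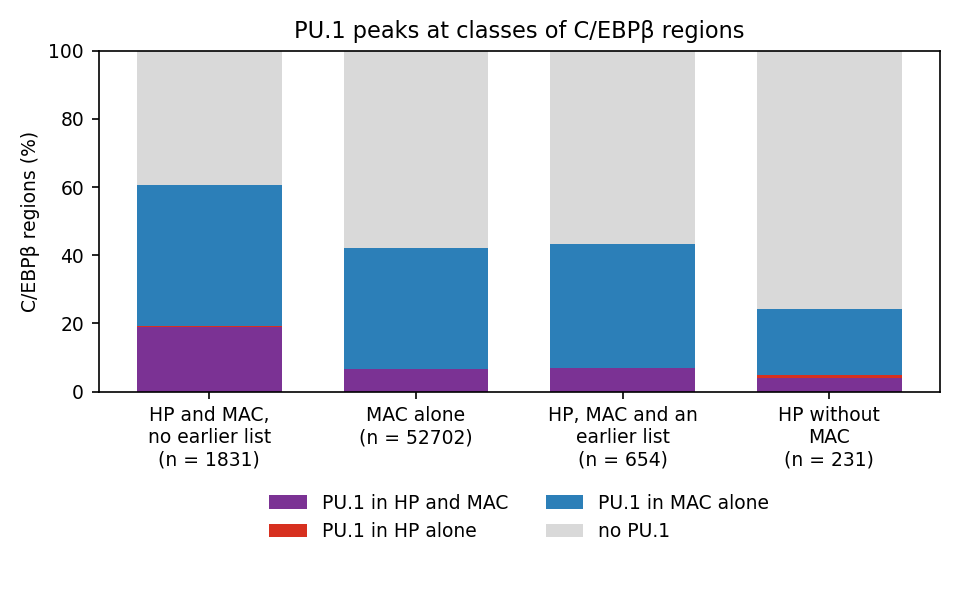
Share of C/EBPβ regions (%) with a PU.1 peak in HP and MAC, in HP alone, in MAC alone or in neither, stacked to 100 for each of 4 classes of regions, with the number of regions under each bar. Members (first bar) held PU.1 at both stages in 18.8% of regions, against 6.63% in regions of MAC alone, and held no PU.1 in 39.3% against 57.9%.

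Peak centres of both factors lay close together. The distance from the C/EBPβ centre to the nearest PU.1 centre had a median of 54 bp in HP (n = 353) and 60 bp in MAC (n = 1103). In the 345 members with PU.1 at both stages the medians were 54 bp in HP and 53 bp in MAC, and in the 758 members with PU.1 in MAC alone 65.0 bp. PU.1 peaks were overlapped with the whole merged region, and the centres were up to 477 bp apart. With a PU.1 centre required within 100 bp of the C/EBPβ centre, 14.3% of members held PU.1 in HP and 41.8% in MAC.

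**Figure D2:**
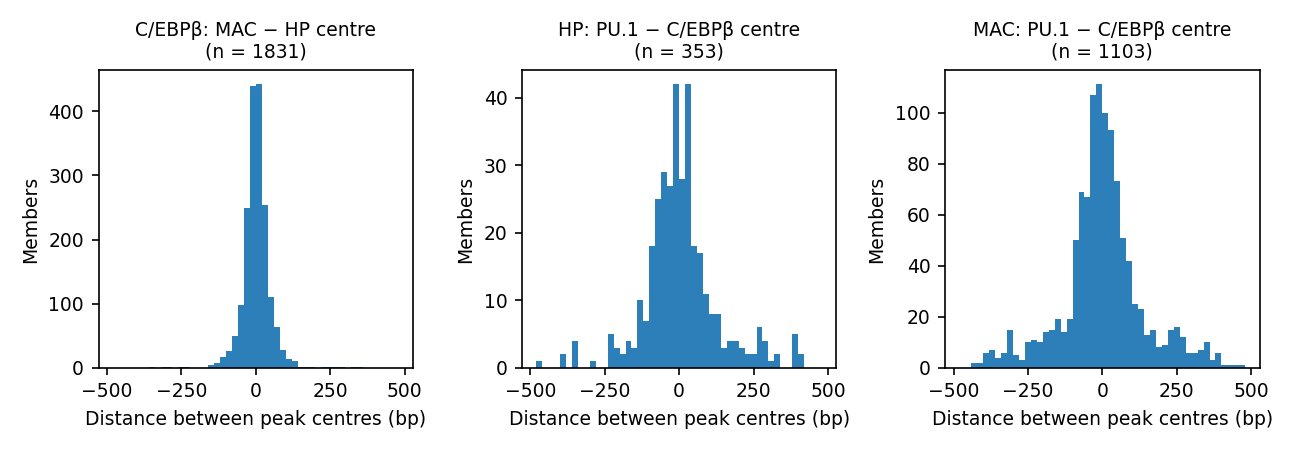
Histograms of the distance in bp between peak centres in member regions: MAC minus HP C/EBPβ centre (left), PU.1 minus C/EBPβ centre in HP (middle) and in MAC (right), in bins of 20 bp. All 3 centre on 0, and the C/EBPβ centres of both stages (median distance 21 bp) lie closer than those of C/EBPβ and PU.1 (medians 54 and 60 bp).

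The PU.1 share moved with the position in the MAC list, so it was compared within deciles of that list, each a run of 10% of its entries, a comparison added after the order was seen. In the first decile, PU.1 in HP was found at 23.1% of 989 members and 9.38% of 4137 regions in MAC alone (13.7 points, adjusted p = 9.5e-27, Fisher's exact test). PU.1 in MAC was found there at 74.5% of members and 63.3% of regions in MAC alone (11.2 points, adjusted p = 7.1e-11, exact test). In deciles 2 and 3 the HP share was still higher in members (22.2% against 8.76%, then 16.5% against 8.69%), but the MAC share was not, at 54.1% against 54.8% and 49.5% against 49.8%. From decile 4 on, the HP share was 0 to 9.68% in members and 4.44 to 7.68% in MAC alone. It was lower in members in deciles 5, 8 and 9 (4.41% against 7.17%, 0 against 5.08% and 0 against 4.56%), and higher in deciles 4, 6, 7 and 10. From decile 4 to decile 9, which held 93 to 21 members each, the MAC share was lower in members, for example 23.5% against 42.1% in decile 5. Decile 10 held 17 members, with 29.4% against 29.2%. Differences in deciles 2 to 10 were not tested.

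**Figure D3:**
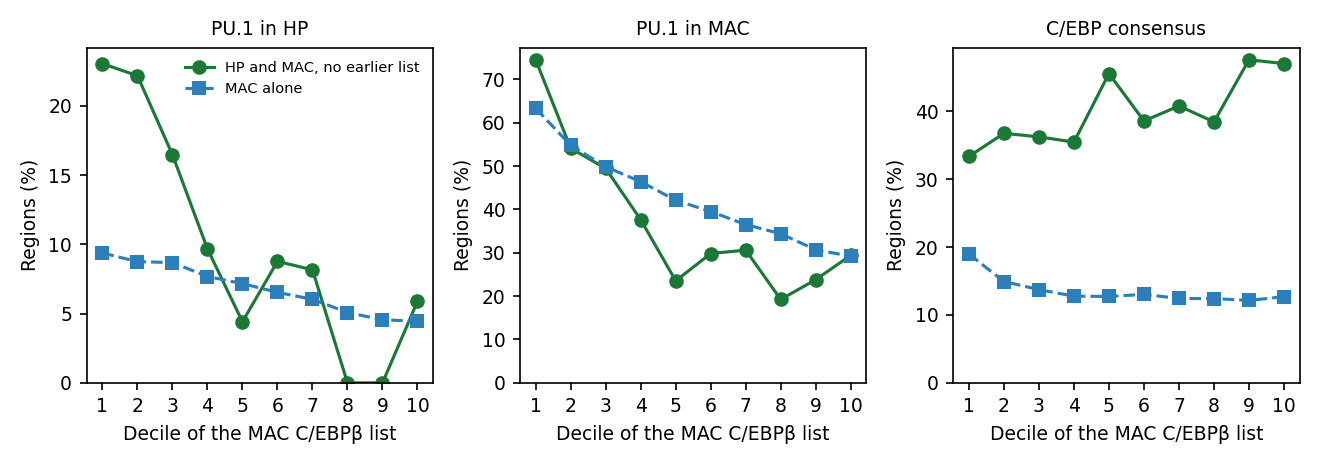
Share of regions (%) with PU.1 in HP (left), PU.1 in MAC (middle) and a C/EBP string (right) in each decile of the MAC C/EBPβ list (x axis, from the top of the list), for members (circles, solid line) and regions of MAC alone (squares, dashed line). Members exceed MAC alone for PU.1 in MAC in the first decile (74.5% against 63.3%), and for the C/EBP string in every decile.

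To see which DNA sequences marked the members, consensus strings were searched on both strands of the 400 bp MAC peak of each region. The strings were chosen with earlier results of these data known, so the adjusted p-values given for them are descriptive. The C/EBP set (TTGCGCAA, TTGCACAA, TTGCATAA and TTGCGTAA) was present in 651 members (35.6%, 95% interval 33.4 to 37.8), in 13.4% of regions in MAC alone, in 54.1% of regions of HP, MAC and an earlier list, and in 13.9% of regions of HP without MAC. Members lay between the classes, 22.1 points above MAC alone (adjusted p = 8.1e-119, Fisher's exact test), while regions bound earlier held the set more often than members (adjusted p = 8.9e-16). The difference from HP without MAC was 21.7 points (adjusted p = 8.5e-12, exact test), and 9.94 points without regions near tRNA genes (adjusted p = 0.06). In the first decile of the MAC list the shares were 33.4% and 19.0%, and further down the list the members' share did not fall with that of MAC alone: in the ninth decile it was 47.6% of 21 members against 12.2%. Where the strings were present, their centre lay a median of 9 bp from the MAC peak centre and 15.0 bp from the HP peak centre.

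Composite strings, in which a C/EBP half-site adjoins an ATF or CRE half-site, were less frequent. The C/EBP-CRE string TGACGCAA was found in 4.10% of members and 1.27% of regions in MAC alone (adjusted p = 2.6e-16, Fisher's exact test), and the C/EBP-ATF string TGATGCAA in 7.92% and 5.18% (adjusted p = 2.7e-06). In the first decile of the MAC list the latter difference was 0.334 points (adjusted p = 0.77, exact test). Any of the C/EBP and composite strings was present in 46.3% of members and 19.5% of regions in MAC alone. The CRE TGACGTCA did not differ detectably from MAC alone (1.26% against 1.03%, interval of the difference -0.199 to 0.855 points, adjusted p = 0.42, exact test), but in the first decile the difference was 0.844 points (adjusted p = 0.044, exact test).

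Strings of other families were found in both directions. AP-1 (TGACTCA, which reads TGAGTCA on the other strand) was less frequent in members than in MAC alone, 12.6% against 18.2% (adjusted p = 4.9e-10, Fisher's exact test). It was more frequent than in regions of HP without MAC (3.90%, adjusted p = 5.7e-05) and than in regions bound earlier (9.17%, adjusted p = 0.035, exact tests), a call lost without the HB list, without the HE list, without regions near tRNA genes and in the first decile (adjusted p = 0.075, 0.071, 0.086 and 0.065, exact tests). RUNX (TGTGGTT) was found in 14.9% of members against 11.0% of regions in MAC alone (adjusted p = 1.2e-06), and the GATA set in 11.3% against 7.88% (adjusted p = 1.6e-06, exact tests). In the first decile of the MAC list, however, these excesses were 2.01 points each (adjusted p = 0.12 and 0.065, exact tests). Regions bound earlier held RUNX in 8.26% (adjusted p = 1.8e-05) and the GATA set in 8.10% (adjusted p = 0.043, exact tests). The latter call was lost with merging at 200 bp (adjusted p = 0.052) and without the HE list (adjusted p = 0.06, exact tests). In regions of HP without MAC the GATA set stood at 16.0% (adjusted p = 0.064), and the members' share was lower by the test without regions near tRNA genes (-15.4 points, adjusted p = 4.6e-05) and without the MES list (adjusted p = 0.046, exact tests). Of the GATA strings, AGATAAG was found in 8.08% of members against 4.76%, and the other, which ends in C, in 3.50% against 3.33%. The PU.1 string GAGGAAGT was found in 9.39% of members and 8.09% of regions in MAC alone (adjusted p = 0.079, and 0.034 at distal regions only), and in 2.14% of regions bound earlier (adjusted p = 9.4e-11, exact tests). For comparison, in the 300 bp RefSeq promoters of the mouse genome (32851 promoters) the shares were 2.08% for C/EBP, 0.895% for C/EBP-ATF, 0.490% for C/EBP-CRE, 1.79% for CRE, 5.20% for AP-1, 3.20% for PU.1, 5.27% for RUNX and 4.80% for GATA. Those promoter windows are shorter than the 400 bp peaks, and most members are distal, so the shares are not like for like. A match of letters describes the window and is not a measured site.

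**Figure D4:**
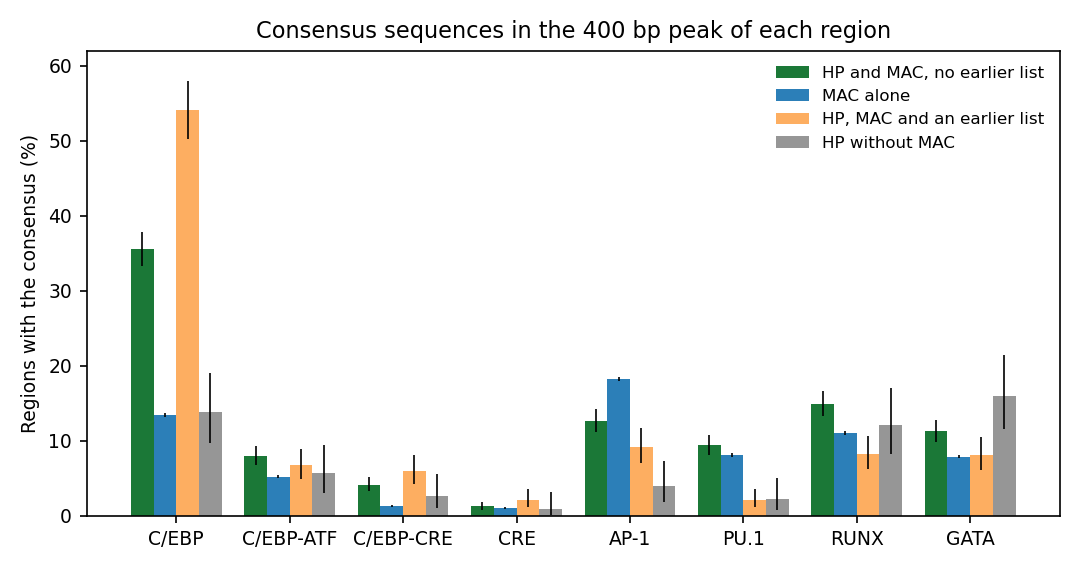
Share of regions (%) whose 400 bp peak holds each consensus set, in the 4 classes of C/EBPβ regions, with exact 95% Clopper-Pearson intervals. For C/EBP, members (35.6%) stand between regions of MAC alone (13.4%) and regions also bound at an earlier stage (54.1%), and for AP-1 they stand below MAC alone (12.6% against 18.2%) and above regions bound earlier (9.17%).

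Members with PU.1 differed in sequence from members without it. The C/EBP set was present in 26.1% of the 353 members with PU.1 in HP and in 37.8% of the others (adjusted p = 0.00022, Fisher's exact test over 34 comparisons). For PU.1 in MAC the shares were 28.7% of 1103 and 45.9% of 728 members (adjusted p = 1e-12, exact test). The PU.1 string had the opposite pattern, with 28.9% against 4.74% for PU.1 in HP (adjusted p = 1.8e-33) and 14.4% against 1.79% for PU.1 in MAC (adjusted p = 5.1e-22, exact tests). C/EBP strings were thus more frequent where PU.1 was not listed. AP-1, RUNX and GATA strings differed by at most 1.94 points between members with and without PU.1, and none of these differences passed the test.

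Other factors were rare at members, and 1389 members (75.9%) overlapped none of the 5 other HP lists, PU.1 included. That share is not given here for all merged regions, where each of the 5 factors was listed less often than at members. Over all merged regions PU.1 in HP stood at 7.05%, GFI1B at 0.976%, RUNX1 at 0.713%, GATA2 at 0.299% and GATA1 at 0.105%. GFI1B, a repressor of early blood cells, was found at 66 members in HP (3.60%), RUNX1 at 52 (2.84%), GATA2 at 36 (1.97%) and GATA1, the erythroid GATA factor, at 16 (0.874%). These shares exceeded those of regions in MAC alone, which were 0.831%, 0.601%, 0.207% and 0.0645% (adjusted p = 3.8e-20, 1.8e-17, 2.2e-20 and 1.3e-11, Fisher's exact tests), and none was shown to differ from regions bound earlier (adjusted p = 0.27, 0.77, 0.11 and 1, exact tests). Without the MES list, GFI1B was lower in members than in regions bound earlier (difference -3.0 points, adjusted p = 0.01, exact test). GATA2 in HP stood at 4.33% in regions of HP without MAC, -2.36 points for members (adjusted p = 0.052), a difference called without regions near tRNA genes (-6.94 points, adjusted p = 0.00049), without the MES list (adjusted p = 0.035) and without the HB list (adjusted p = 0.048, exact tests). RUNX1 in MAC was found at 12 members (0.655%), against 0.0664% of regions in MAC alone (adjusted p = 9e-08, exact test) and 0.0906% of all merged regions, and all 12 were among the 1103 with PU.1 in MAC. Of the 36 members with GATA2 in HP, 34 held PU.1 in MAC (3.08% against 0.275% of members with and without it, adjusted p = 5.2e-05, exact test) and 14 held PU.1 in HP. GATA2 of HB was found at 0 of 1831 members and 0.0142% of all merged regions. It was found at 1.30% of regions of HP without MAC (adjusted p = 0.0027, exact test). In regions bound earlier it stood at 0.306% (adjusted p = 0.1, and 0.046 without the MES list, exact tests). A count of 0 allows a share of up to 0.164% by a limit of 3 counts, and of 0.201% by the two-sided Clopper-Pearson interval. ELK4 of MES was found at 7 members (0.382%), where 0.256% of all merged regions held it, and at 1.53% of regions bound earlier (adjusted p = 0.0086, exact test). The call against regions bound earlier was lost without the MES list, at distal regions only and in the first decile of the MAC list (adjusted p = 0.081, 0.19 and 0.11, exact tests). The excess over MAC alone was 0.143 points (adjusted p = 0.29), and was called at 0.295 points without the MES list (adjusted p = 0.034, exact tests).

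Members were placed nearer to promoters than regions of MAC alone. Regions were called promoter-proximal when their centre was at most 2 kb from a coding transcription start site (TSS). By this limit 460 members were proximal (25.1%), against 15.7% of regions in MAC alone (9.41 points, adjusted p = 3.1e-23, Fisher's exact test) and 42.8% of regions bound earlier (adjusted p = 3.8e-16). The share of 18.2% in HP without MAC was lower (adjusted p = 0.04, exact test), a call that was lost when regions near tRNA genes were left out (adjusted p = 0.87) and reversed with the TSS of all transcripts, which include tRNA genes (-33.0 points). The median distance to a TSS was 13163 bp in members, 21966 bp in MAC alone and 5191 bp in regions bound earlier. By their centre, 49.6% of members were intergenic, 44.3% lay in an intron, 3.82% in an untranslated exon and 2.18% in a coding exon. The shares in regions of MAC alone were 47.2%, 47.5%, 3.30% and 2.02%, and were not tested. The PU.1 share was higher in members than in MAC alone both at promoters (17.4% against 8.28% in HP, 63.0% against 50.4% in MAC) and at distal regions (19.9% against 6.45%, 59.3% against 40.4%).

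Each member was assigned to the coding gene with the nearest TSS. A member was found at 1616 of 21000 coding genes (7.7%), of which 1432 had 1 member, 159 had 2 and 20 had 3. As a comparison, 64.5% of coding genes were nearest to a region in MAC alone. The lists with many member genes stood above that share too, with a region in MAC alone at 57 of 57 hematopoietic factors, 29 of 30 growth factor and cytokine receptors and 22 of 25 glucose and hypoxia genes, and the erythroid and endothelial lists stood below it (57.1% and 54.5%). The 16 gene lists used below were chosen with earlier results of these data known, so their counts are descriptions with no test. Genes far from their neighbours collect more regions, and this was not adjusted for.

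**Figure D5:**
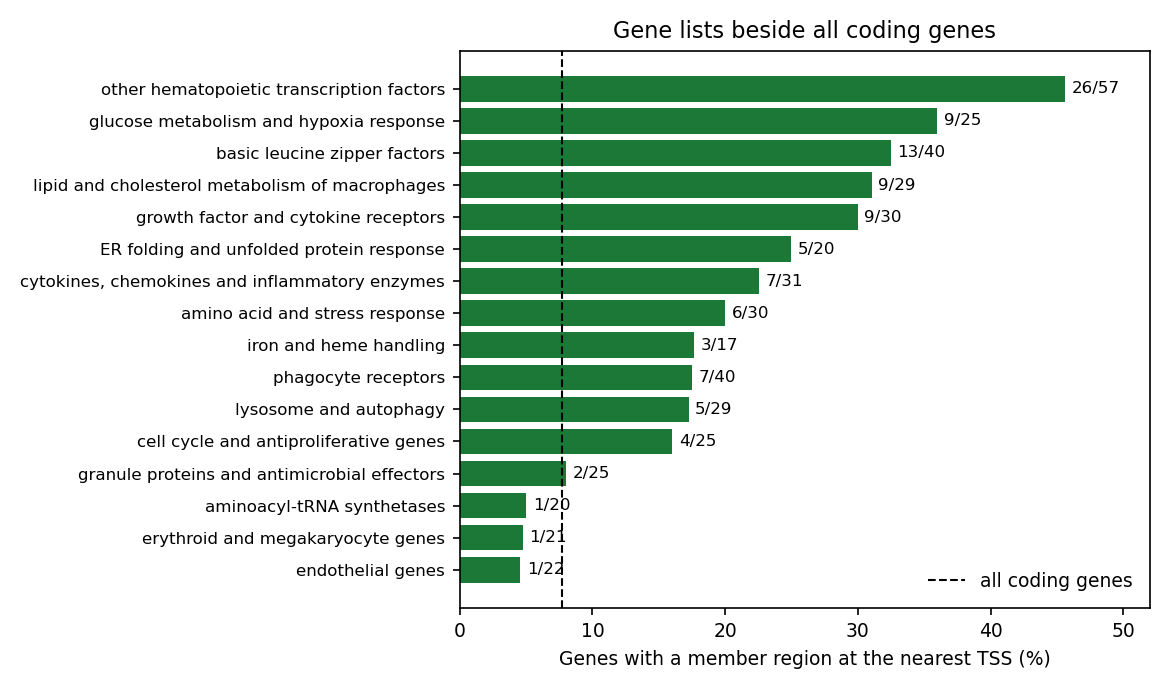
Share of the genes of each list (%) to which at least 1 member region was assigned, with the number of genes beside each bar. The dashed line marks all coding genes (7.7%), and lists of transcription factors, receptors and metabolism lie to its right, up to 26 of 57 genes, and the aminoacyl-tRNA synthetase, erythroid and endothelial lists (1 gene each) to its left. With genes overlapped or within 10 kb in place of the nearest TSS, the synthetase and erythroid lists have 3 genes each, the lysosomal list 3 and the iron list 1, where 1682 of all 21000 coding genes have a member by that rule.

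Among transcription factors outside the basic leucine zipper family, 26 of 57 genes held a member, with 37 regions in all, 11 with PU.1 in HP and 22 with PU.1 in MAC. Spi1, which encodes PU.1, held an intronic region 664 bp downstream of a TSS (chr2:91082853-91083285), where the C/EBPβ centres were 33 bp apart. PU.1 was listed there in HP and MAC, 3 and 40 bp from the C/EBPβ centre, and RUNX1 in HP. A second Spi1 region lay 1660 bp downstream of a further TSS (chr2:91098159-91098561), with PU.1 in MAC but not in HP, a C/EBP string and a RUNX string. Both Spi1 regions were thus intronic and differed in their PU.1 state in HP.

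Irf2, an interferon regulatory factor, held 4 members. The first lay 184 bp upstream of the TSS (chr8:46739343-46739779), with the C/EBP string shown above and with PU.1 in HP and MAC 34 and 67 bp away. The others lay in introns, 2565, 25334 and 49463 bp downstream, and PU.1 was listed at neither stage at the nearest of these and at both stages at the farther ones. The intronic region at 25334 bp also held GATA2 in HP. Ikzf1, which encodes the lymphoid and myeloid regulator Ikaros, held 1 region in an untranslated exon 286 bp downstream of the TSS (chr11:11686000-11686421) with PU.1 in MAC alone, and 1 in an intron 40216 bp downstream with PU.1 at both stages. Tfec, a macrophage factor of the MiT family, held a region 247 bp upstream (chr6:16898478-16898897) with PU.1 at both stages. Meis1, a regulator of stem cells, held a region 42 bp upstream (chr11:19018806-19019216) with PU.1 at neither stage.

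Basic leucine zipper factors held members at 13 of 40 genes (15 regions, 5 with PU.1 in HP and 12 in MAC). Nfe2, which encodes the partner of small MAF proteins in erythroid cells and megakaryocytes, had its region 13 bp downstream of the TSS in an untranslated exon (chr15:103258188-103258591). It was listed for PU.1 in HP and MAC and for GATA1, GATA2 and RUNX1 in HP, in 7 of 14 lists, and was the member named among erythroid and megakaryocyte genes (1 of 21 matched, 3 with genes within 10 kb). Fosb and Junb encode partners in AP-1. Fosb held a region 38 bp upstream (chr7:19309855-19310311) with a C/EBP-CRE string, GFI1B in HP and PU.1 in MAC alone, and Junb a region 1049 bp upstream (chr8:84979597-84979996) with PU.1 at both stages, ELK4 in MES and none of the strings searched. Atf7 held 2 regions, 357 bp upstream with PU.1 in MAC alone and 2142 bp downstream with PU.1 at neither stage, and Atf1 a region 565 bp upstream with PU.1 at neither stage. Cebpb itself had 2 members, 65204 and 71210 bp downstream (chr2:167753897-167754341 and chr2:167759921-167760328), both with a C/EBP string and with PU.1 at both stages.

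Genes of the amino acid and integrated stress response, through which cells meet shortage of amino acids, held members at 6 of 30 genes, with 8 regions, 5 of them promoter-proximal, 3 with PU.1 in HP and 7 in MAC. These include both Cebpb regions, since Cebpb stood in both lists. Slc7a11, the light subunit of the cystine and glutamate exchanger, held a region 41 bp upstream (chr3:50443453-50443855) with the paired C/EBP-ATF strings and C/EBPβ centres 3 bp apart. Its PU.1 peak was found in MAC alone, 257 bp from the C/EBPβ centre. Slc3a2, the heavy subunit of the same exchanger, held a region 872 bp downstream in an intron (chr19:8712813-8713237) with a C/EBP-CRE and an AP-1 string and PU.1 in MAC alone. Slc38a2, a transporter of neutral amino acids, held 2 regions with a C/EBP-ATF string, 547 bp downstream (chr15:96698981-96699381) and 43769 bp upstream, both with PU.1 in MAC alone. Shmt2, the mitochondrial serine hydroxymethyltransferase, held a region 489 bp downstream (chr10:127521752-127522158) with a C/EBP-ATF string and PU.1 at neither stage. Eif4ebp1, which encodes a translation inhibitor, differed from these in having PU.1 at both stages, 24 and 5 bp from C/EBPβ, and none of the strings (chr8:27261056-27261494). A composite C/EBP string was thus present in 5 of the 8 regions, and both Cebpb regions held a C/EBP string alone. Over all members the composite strings stood at 4.10% (C/EBP-CRE) and 7.92% (C/EBP-ATF).

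Endoplasmic reticulum folding genes held members at 5 of 20 genes. At Canx, which encodes the chaperone calnexin, the region lay 46 bp upstream (chr11:50325518-50325919) with PU.1 at both stages. At Calr, which encodes calreticulin, it lay 868 bp upstream (chr8:84847570-84848027) with PU.1 in MAC alone. Xbp1, a factor of the unfolded protein response, held 2 regions with PU.1 in MAC alone, 1034 bp downstream with a C/EBP-CRE string (chr11:5521472-5521877) and 18077 bp upstream with a C/EBP string. Edem1 and Dnajb9, which act in disposal of misfolded proteins, held regions 7718 and 11748 bp downstream, with PU.1 in MAC alone and at neither stage. Among aminoacyl-tRNA synthetases, 1 of 20 genes held a member (3 with genes within 10 kb), namely Gars, 26 bp upstream (chr6:55037768-55038181), where the PU.1 peak in MAC lay 1 bp from the C/EBPβ centre and RUNX1 was listed in HP.

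Growth factor and cytokine receptors held members at 9 of 30 genes (10 regions, 5 with PU.1 in HP and 7 in MAC). The region of Ifngr2, a subunit of the interferon gamma receptor, lay 429 bp upstream (chr16:91546423-91546836) with a PU.1 string and with PU.1 at both stages, 0 and 21 bp from the C/EBPβ centre. A further Ifngr2 region, 24343 bp upstream, held C/EBP and AP-1 strings and PU.1 at neither stage. Tnfrsf1b, which encodes a TNF receptor, held the paired strings shown above in an intron 5695 bp downstream (chr4:145240959-145241390), with PU.1 centres 1 and 18 bp from C/EBPβ in HP and MAC. Il10ra, the interleukin 10 receptor subunit, held a region 5199 bp upstream (chr9:45274142-45274553) with PU.1 at both stages and GATA2 and GFI1B in HP. Csf3r, the receptor for granulocyte colony-stimulating factor, held a region 6822 bp upstream with a C/EBP string and PU.1 in MAC alone, and Il4ra a region 1002 bp upstream with PU.1 at neither stage.

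Cytokines and inflammatory enzymes held members at 7 of 31 genes. In Il6, the region lay 1741 bp downstream of the TSS with its centre in a coding exon (chr5:30014653-30015056), held the C/EBP string shown above and had PU.1 at neither stage. At the chemokine genes Ccl9 (1314 bp downstream, chr11:83577099-83577545) and Ccl3 (9015 bp downstream, chr11:83640155-83640570) PU.1 was listed at both stages. Ccl6, of the same cluster, held a region 10563 bp upstream with a C/EBP string and no PU.1. Csf1, the growth factor of macrophages, held a region 23042 bp upstream with PU.1 in MAC alone.

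Receptors of phagocytes held members at 7 of 40 genes, with PU.1 in HP at 2 and in MAC at 3 of the 7 regions. Clec12a, an inhibitory lectin of myeloid cells, held its region 162 bp upstream (chr6:129349869-129350294) with PU.1 at both stages, 345 and 382 bp from C/EBPβ, so that the peaks overlapped at their ends. Itgax, which encodes the integrin CD11c, held a region with its centre in a coding exon 4263 bp downstream (chr7:128133611-128134014) with both strings and with PU.1 at both stages, 45 and 34 bp away. Sirpa and Axl, which encode receptors that regulate phagocytosis, held regions 725 and 2101 bp upstream with a C/EBP string and no PU.1, and Treml4 a region 10763 bp downstream with a C/EBP-ATF string and no PU.1. Granule and antimicrobial genes held members at 2 of 25 genes, close to the share of all coding genes. Mpo, the myeloperoxidase gene, held a region 3589 bp upstream (chr11:87789977-87790413) with GFI1B in HP and PU.1 in MAC alone, and Cyba, a subunit of the phagocyte oxidase, a region 582 bp downstream with PU.1 in MAC alone.

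Lysosomal and autophagy genes held members at 5 of 29 genes (3 with genes within 10 kb). Ctsl, Ctsb and Ctsd encode lysosomal proteases, with regions 28 bp downstream (chr13:64370254-64370730, a C/EBP string and PU.1 in MAC alone), 9971 bp downstream (no PU.1) and 11598 bp upstream (PU.1 at both stages). Tfeb, the master regulator of lysosomal genes, held the most closely spaced pair of C/EBP and PU.1 strings among the 21 members searched outside chromosome 18, in an intron 16501 bp downstream (chr17:47754230-47754634), with PU.1 centres 25 and 20 bp from C/EBPβ. Psap, which encodes prosaposin, held a region 24806 bp upstream with a C/EBP string and PU.1 in MAC alone.

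Lipid and cholesterol genes held members at 9 of 29 genes, with 11 regions, none of them promoter-proximal, 2 with PU.1 in HP and 10 in MAC. Alox5 and Alox5ap, which act together in leukotriene synthesis, held intronic regions 2221 and 7850 bp downstream (chr6:116458714-116459200 and chr5:149272643-149273065), both with PU.1 at both stages. Soat1, which esterifies cholesterol, held 2 intronic regions, 3063 and 15496 bp downstream, Scd2, a fatty acid desaturase, 1 at 3956 bp downstream, and Abcg1, a cholesterol exporter, 1 at 17903 bp upstream, each with PU.1 in MAC alone. Iron genes held members at 3 of 17 genes (1 with genes within 10 kb), Fbxl5, Steap4 and Fth1, which act in iron sensing, reduction and storage. These lay 17577 bp upstream, 20353 bp downstream and 27881 bp upstream, and PU.1 was listed in MAC alone at each.

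Glucose and hypoxia genes held members at 9 of 25 genes, with 12 regions, 4 with PU.1 in HP and 10 in MAC. The glycolytic genes Gapdh and Pkm held intronic regions 1010 bp downstream (chr6:125164557-125164969, a C/EBP-ATF string and PU.1 in MAC alone) and 2227 bp downstream (chr9:59659250-59659657, no PU.1). Pgd, of the pentose phosphate pathway, held a region 7077 bp upstream with PU.1 at both stages and one 10220 bp downstream with PU.1 in MAC alone. Egln3, an oxygen-sensing hydroxylase, held an intronic region 12504 bp downstream with a C/EBP string and PU.1 at both stages, 3 and 25 bp away, and an intergenic region 104855 bp downstream with no string and PU.1 at neither stage. Slc2a1, a glucose transporter, held an intronic region 16958 bp downstream with PU.1 in MAC alone.

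Cell cycle and antiproliferative genes held members at 4 of 25 genes (2 with a TSS within 50 kb), all 13743 bp or more from a TSS. Btg2 and Ccnd3 had PU.1 at both stages, Btg1 in MAC alone, and Cdkn2b, which encodes an inhibitor of cyclin-dependent kinases, held 2 regions, 58378 and 175137 bp upstream, with PU.1 at neither stage and in MAC alone. Of endothelial genes, 1 of 22 held a member, Esam, at 10348 bp upstream in an intron of Msantd2 (chr9:37517525-37517957) with C/EBP and AP-1 strings and no PU.1.

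Several genes collected more than 1 member. Zfp608 had 5, at 19185 to 416981 bp from its TSS, and Sod1, Pmaip1 and Tomm20 had 4 like Irf2. At Sod1, the cytosolic superoxide dismutase gene, the regions lay from 592 to 43338 bp away (the nearest at chr16:90221126-90221582), and 2 of 4 held PU.1 in HP. At Tomm20, whose regions lay 93593 to 138356 bp away, 4 of 4 held PU.1 in MAC and 2 in HP. Gclc, the rate-limiting enzyme of glutathione synthesis, had 3 regions, 3 with PU.1 in MAC and 1 in HP, and Trib1, a pseudokinase that acts on C/EBPα, had 3 with the same counts, the nearest 1944 bp downstream (chr15:59650380-59650816) with PU.1 in MAC at 0 bp from the C/EBPβ centre. Gse1, Akap13 and Lacc1 also had 3 each.

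Among genes of the other factors measured, Runx1 had 3 members. The region 24280 bp downstream of a TSS in an intron (chr16:92801585-92802002) was listed for PU.1 at both stages and for GATA2 and RUNX1 in HP, so that RUNX1 was found at its own gene. The other Runx1 regions, 81936 bp downstream and 381810 bp upstream, held a C/EBP string and no PU.1. Gfi1b had 1 member, 2952 bp downstream in an intron (chr2:28618776-28619284) with a C/EBP string and PU.1 in MAC alone. Gata1, Gata2 and Elk4 had no member.

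The members in the most lists were 6 with a peak in 7 of 14 lists. They include the Nfe2 promoter, a region in an intron of Selp 16252 bp upstream of F5 (chr1:164135366-164135799), and a region 29256 bp upstream of Tgm2 (chr2:158175436-158175860), each with PU.1 at both stages and RUNX1 in HP. They also include a region in an intron of Mdga1 (chr17:29859562-29860250) and one 28561 bp downstream of Ap1m1 (chr8:72268348-72268810). Both had PU.1 in MAC alone, GATA1, GATA2, GFI1B and RUNX1 in HP, and a GATA string. Of all members, 698 were in 2 lists, 707 in 3 and 367 in 4, and these counts were not compared with other regions. The rule put every member in exactly 2 C/EBPβ lists and kept it out of the earlier ones, so these counts start at 2.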

How the data were processed

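The data were 14 deposited peak lists, 1 per factor and stage, from mouse cells. The authors trimmed reads with CutAdapt, aligned them with Bowtie to mm10 (GRCm38), removed duplicates, called MACS peaks against the input of the same stage with a p-value cutoff chosen by eye per list, and refined them with polyPeak. Tool versions are not given in the sources used here. Each deposited value is a peak position, with every peak 400 bp wide and no score, so the depth behind a peak is not in the lists, library read totals were not used here, and list length is no measure of binding.

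Peaks of the C/EBPβ lists were merged at 1 bp of overlap, and a factor was counted as present where its peak overlapped the merged region by 1 bp. Genes, 25999 TSS of coding transcripts and 403 tRNA genes came from RefSeq GRCm38.p6, and 1 peak on the mitochondrial genome was left out of gene assignment. Strings were searched on both strands of the 400 bp MAC peak (HP peak where MAC had none). Shares were compared by two-sided Fisher's exact tests at an adjusted p of 0.05, with Newcombe intervals for differences. Members, gene lists and strings were chosen with earlier results of these data known. Named genes were, per list, up to 5 genes whose member lay nearest to a TSS, the 10 genes with the most members, the 7 study factors, and 5 members in the most lists. Programs (Python 3.11.15, NumPy 2.4.6, SciPy 1.17.1, Matplotlib 3.10.9) were tested on simulated data. Alternatives changed the merging, the earlier lists, the PU.1 overlap, the TSS, the strings and the chromosomes. No paired analysis was possible because each group held 1 list.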

Additional observations from a re-analysis of the deposited data

Results flagged for a closer look

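The excess of PU.1 at members over regions in MAC alone differed between promoters and distal regions. For PU.1 in HP, the odds ratio at promoters (2.33, 460 members) was 0.647 times that at distal regions (3.61, 1371 members). The difference of log odds ratios had an adjusted p of 0.0061 by a normal approximation and of 0.0066 by Zelen's exact test, which was added later. For PU.1 in MAC, the odds ratio at promoters (1.68) was 0.783 times that at distal regions (2.15), with an adjusted p of 0.031 and, by Zelen's exact test, of 0.032. At both kinds of region the share was higher in members. Within the first decile of the MAC list the ratios were 0.703 for HP (adjusted p = 0.25) and 1.01 for MAC (adjusted p = 0.97), by the approximation and not by an exact test.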

How the results depend on the processing

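The number of members ranged from 1811 to 2063 over the alternatives, the highest without the MES list, and their pooled excess of PU.1 over each class kept its direction and its side of the threshold in each alternative with a test, of which the first decile was the only run within a part of the MAC list. In deciles 2 to 9, not tested, the share with PU.1 in MAC was lower in members than in MAC alone. The share with PU.1 in HP was lower in members in deciles 5, 8 and 9, also not tested. Some differences from regions of HP without MAC, a class of 231 regions of which 51.5% lay near tRNA genes, depended on the setting. The promoter difference was 5.48 points with merging at 200 bp (adjusted p = 0.083), 2.03 without regions near tRNA genes (adjusted p = 0.87), 6.59 without the sex chromosomes (adjusted p = 0.057) and reversed to -33.0 with the TSS of all transcripts, which include tRNA genes (adjusted p = 9.2e-21, Fisher's exact tests). The C/EBP string difference was 9.94 points without regions near tRNA genes (adjusted p = 0.06, exact test). The members' promoter share was 27.2% without the MES list, 18.8% within 1 kb and 34.1% with all transcripts. Their PU.1 share in HP was 17.3% and in MAC 51.6% with a 200 bp overlap, 14.3% and 41.8% with centres within 100 bp, and 23.1% and 74.5% in the first decile of the MAC list. Their C/EBP share was 39.2% at distal regions and 65.7% with the looser TTGCNNAA. The promoter-to-distal ratio of odds ratios for PU.1 in MAC was 0.886 with centres within 100 bp (adjusted p = 0.29), 0.804 within 1 kb of a TSS (adjusted p = 0.09) and reversed to 1.01 in the first decile (adjusted p = 0.97), where that for PU.1 in HP was 0.703 (adjusted p = 0.25), all without an exact test. Causes were not tested. With genes within 10 kb, the counts of genes with a member were 3 for synthetases, lysosomal and erythroid genes and 1 for iron genes, and with a TSS within 50 kb it was 2 for cell cycle genes. No paired analysis was possible because each group held 1 list. Read depth was not analysed here, binding below the cutoff of a list could not be assessed, and with 1 list per group nothing here measures variation between cultures.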

Other observations

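The C/EBP strings did not differ to the same degree between members and regions in MAC alone, a comparison made after the shares were seen. The palindrome TTGCGCAA was found in 104 members (5.68%) and in 0.786% of regions in MAC alone (odds ratio 7.61, adjusted p = 1.1e-48, Fisher's exact test over 24 comparisons), and in the first decile of the MAC list in 3.64% and 0.798% (odds ratio 4.70). TTGCGTAA had an odds ratio of 3.75 and TTGCACAA, the most frequent string in members at 20.3%, one of 3.11. TTGCATAA had an odds ratio of 1.31 (adjusted p = 0.019), and in the first decile of 1.03 (adjusted p = 0.87, exact tests). The differences between these ratios were not tested.

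Of the members, 17 (0.928%) had their centre within 500 bp of a tRNA gene, against 8.10% of regions bound earlier and 51.5% of regions of HP without MAC (adjusted p = 1.6e-17 and 2.2e-106, Fisher's exact test). The share exceeded that of regions in MAC alone (0.0266%, odds ratio 35.3, adjusted p = 7.2e-17, exact test), a call lost in the first decile of the MAC list (0.101 points, adjusted p = 0.24, exact test), and it was 0.386% over all merged regions. These differences moved with the earlier lists used. The difference from MAC alone was 0.902 points with all lists and 1.86 points without the HE list. From regions bound earlier, members differed by -7.18 points with all lists, -3.62 without the HE list and -11.7 without the MES list. PU.1 was listed in MAC alone at 6 of the 17 members, at both stages at 1 and at neither at 10.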
